A study of Mus musculus with 36 samples.

Results

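The genes described here are 33 genes of the distal nephron and the collecting duct of the kidney, out of 55536 genes counted. They were chosen by name and grouped by segment: 7 genes of the thick ascending limb, 9 of the distal convoluted tubule, 8 of the principal cells and 9 of the intercalated cells. Not all are confined to the segment they are listed under, as said below for Egf, Car2 and Slc4a1. This was not checked for the other genes, since whole-kidney counts cannot show which segment a transcript came from. All 33 were found in the count files by their Ensembl 96 symbols. Reads per gene were counted in 36 kidney libraries of mice, 6 in each of 6 groups. The ob groups are ob/ob mice, which carry an obesity mutation that removes leptin, on the C57BL/6 strain, untreated or given cadmium chloride (CdCl2) at 0.5 or 2 mg/kg. The b6j groups are normal C57BL/6 mice in the same 3 arms. Route, duration, age and sex are not given in the labels used here, and neither is it said that each library is a separate animal, so p-values measure the spread between these libraries.

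The thick ascending limb takes up sodium, potassium and chloride without water and dilutes the urine. The distal convoluted tubule then takes up sodium chloride through a thiazide-sensitive cotransporter under the control of WNK kinases, and also calcium and magnesium. In the collecting duct, principal cells take up sodium through the epithelial sodium channel and water through aquaporins, under aldosterone and vasopressin, while intercalated cells move acid, base and ammonia. Cadmium is known chiefly as a poison of the proximal tubule, which lies upstream of all these segments.

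Each library held 26783936 to 37244058 counted reads, and 3 counts were worth 0.085 to 0.112 counts per 1000000 reads (CPM). Levels are CPM on library totals scaled by trimmed mean of M values, and changes are fitted log2 ratios ± standard error (SE). A gene was called at an adjusted p below 0.05 by edgeR's quasi-likelihood model, adjusted after Benjamini and Hochberg over all 18180 genes tested. The first principal component of the 18180 genes tested placed replicate 5 of the ob 2 mg/kg group at 135.91, with the next library at 69.12. Values are thus given with this library and without it. Its summed level of 10 genes of injured tubule was 16900 CPM, against 2390 to 4190 CPM in the other 5 libraries of its group. Among b6j controls replicate 4 stood apart in Havcr1, kidney injury molecule 1, at 181 CPM against 2.15 to 13 CPM in the other 5. It also stood apart in the cell cycle inhibitor Cdkn1a, at 16.7 CPM against 3.26 to 4.7 CPM. Its summed level of the 10 genes of injured tubule was 999 CPM, within the 808 to 1120 CPM of all b6j controls. Since whole kidney was measured, fewer cells of a type and less RNA per cell cannot be told apart.

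In kidneys of b6j controls the genes spanned a wide range of levels per length. Umod, which encodes uromodulin, the most abundant protein of normal urine, was highest at 834 ± 122 CPM per kb (SD, n = 6). Slc12a1, the sodium-potassium-chloride cotransporter of the thick ascending limb, followed at 202 ± 32.5 CPM per kb. Next came Kcnj16 at 143 ± 7.36, Aqp2 at 143 ± 77.4, Car2 at 142 ± 14.3, Slc12a3 at 131 ± 11.4 and Egf at 114 ± 17.7 CPM per kb, whose ranges of 1 SD overlap from each to the next. Marker genes of every segment were thus measured in the tissue, and 1 gene was too low to test. Avpr2, the vasopressin V2 receptor, had 0.0804 ± 0.0505 CPM per kb. Its level lay between 0 and 0.511 CPM over the 36 libraries, near what 3 counts are worth, and it was not tested. The counting ignored strand, and 81.3% of the exonic bases of Avpr2 (chrX:73892102-73895502, GRCm38) are shared with Arhgap4 on the opposite strand. Its value is thus uncertain and does not show that the transcript is absent. The other 32 genes passed the filter on low counts.

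At 2 mg/kg most of these genes were lower in ob mice and fewer were called in b6j mice, and none was called higher in either genotype, where 20.4% of all genes were called higher in ob mice and 12.3% in b6j mice. In ob mice 23 of the 32 tested genes fell against ob controls, with a median log2 change of -0.57, while 18% of all tested genes were called lower and the median of all genes was 0.01. Without replicate 5 there were again 23 calls, 21 of them shared, with a median of -0.46; the background was 18.9% called lower and a median of -0.01 over 18380 genes. Umod and Aqp2 lost their call without that library, and Kcnj1 and Kcnj16 gained one. In b6j mice 7 of 32 fell against b6j controls, a share of 21.9% where 11.4% of all genes were called lower, and the median was -0.21 against 0.02 for all genes. The same b6j libraries gave 16 falls, 50% of the genes tested, when replicate 5 of the ob 2 mg/kg group was left out of the shared estimate of spread, where 17.7% of all genes were called lower. Without b6j control replicate 4 there were 9 falls in b6j mice, among them all 7, with a median of -0.23. There 23.3% of all genes were called in either direction, against 23.7% with that library.

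By segment, the calls in ob mice were 4 of 7 genes of the thick ascending limb, 7 of 9 of the distal convoluted tubule, 5 of 7 tested genes of principal cells and 7 of 9 of intercalated cells. Without replicate 5 they were 4, 8, 4 and 7. In b6j mice the counts were 0, 3, 2 and 2 with all libraries and 0, 8, 3 and 5 without replicate 5 of the ob group. In ob mice every library at 2 mg/kg lay below every control for 15 of the 32 tested genes, where this held for 8.73% of all tested genes. In b6j mice it held for 6 of 32, against 8.94% of all tested genes, and 5 of the 6 belong to the distal convoluted tubule. Fitted to the compared groups alone, 11 of the 23 calls in ob mice remained. There 23.2% of all genes were called in either direction, against 38.4% in the fit to all 6 groups. With replicate 5 also left out there were 25 calls, 22 of them shared with the 23, and 38.4% of all genes were called. This setting was chosen after seeing the data.

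**Figure D1:**
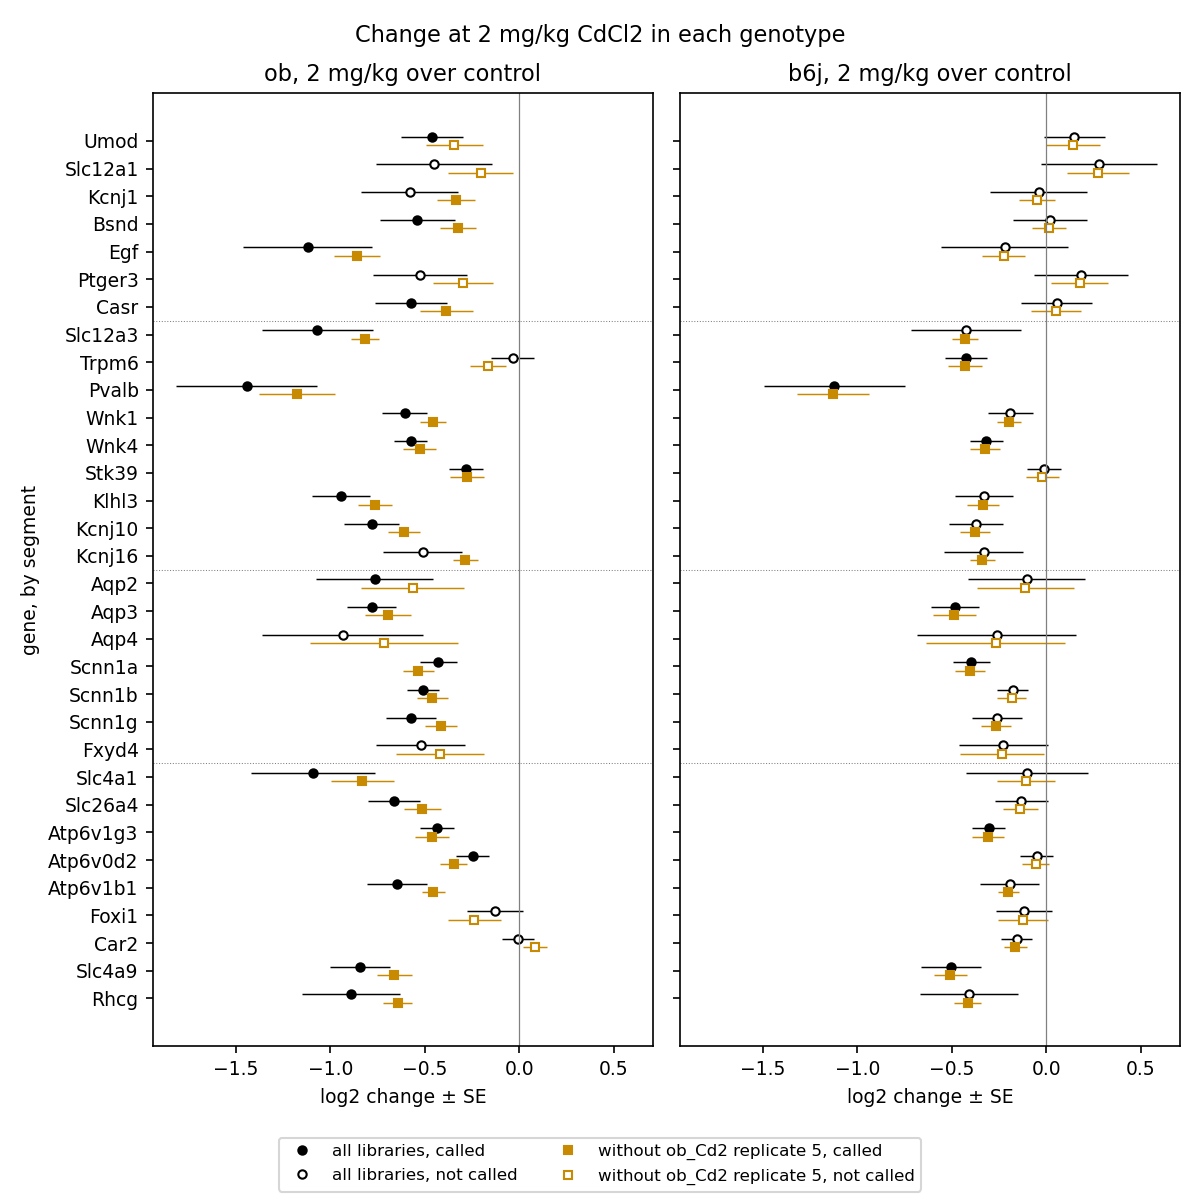
Fitted log2 change ± SE (x axis) of the 32 tested genes (y axis, ordered by segment, dotted lines between segments) at 2 mg/kg CdCl2 over control, in ob mice on the left and b6j mice on the right. Black circles are fits with all 36 libraries and ochre squares fits without ob 2 mg/kg replicate 5, filled where called. In ob mice all 32 black circles lie below 0, and in b6j mice the genes of the thick ascending limb lie on both sides of 0, between -0.22 and 0.28.

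**Figure D2:**
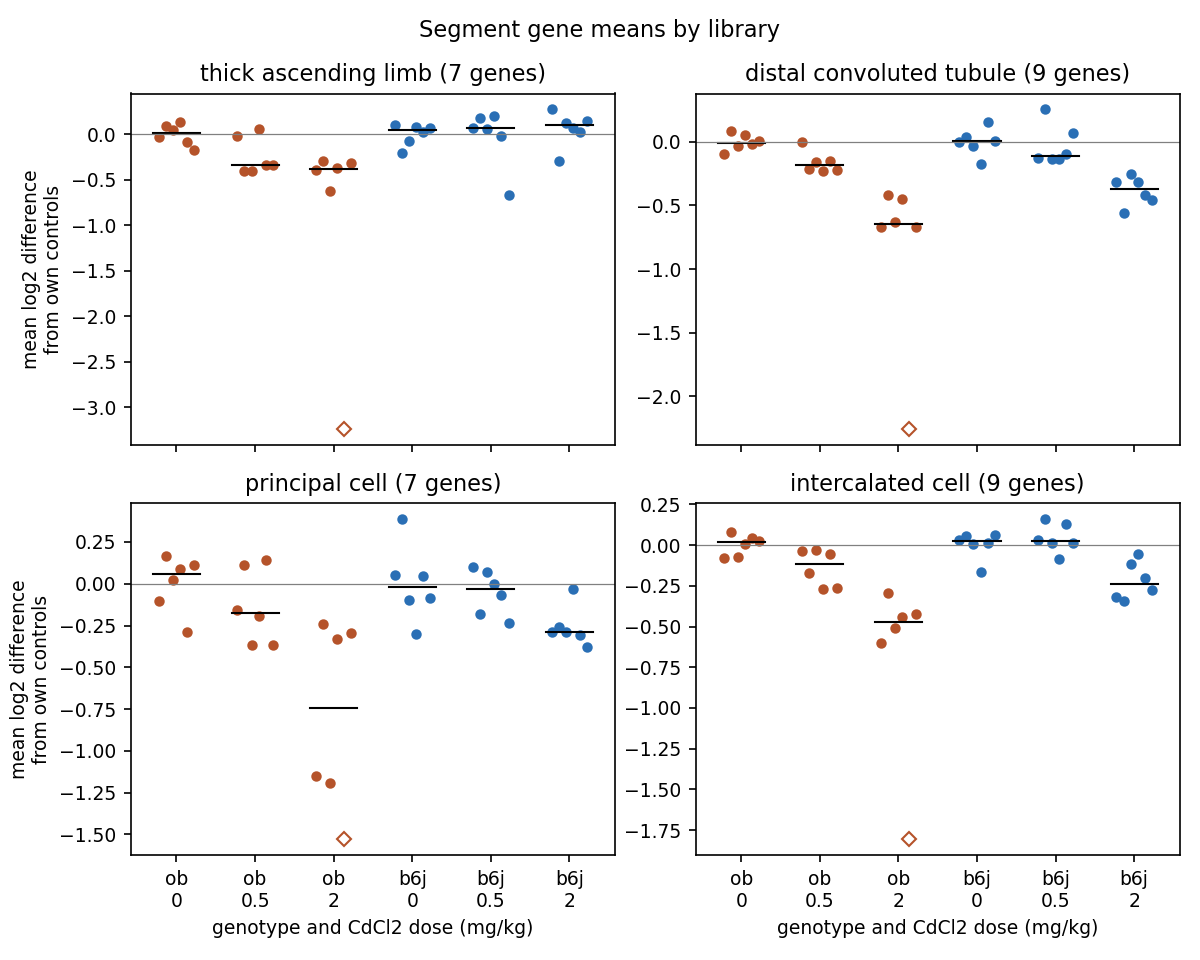
Mean log2 difference of a segment's tested genes from the mean of the controls of the same genotype (y axis, a different range in each panel), 1 point per library, by genotype and CdCl2 dose (x axis). Lines are group medians and the open diamond is ob 2 mg/kg replicate 5, which lies lowest in all 4 panels, at -3.25, -2.26, -1.53 and -1.81 in reading order.

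Genes of the thick ascending limb fell at 2 mg/kg in ob mice and none was called in b6j mice. Egf encodes the precursor of epidermal growth factor, which this segment and the next make in large amounts. Its lowest, median and highest levels were 17.6, 608 and 747 CPM in ob mice at 2 mg/kg, against 1120, 1150 and 1230 CPM in ob controls. The groups did not overlap, and the 17.6 CPM came from replicate 5, with 543 CPM the next library up. Egf fell by 1.12 on the log2 scale (SE 0.34, edgeR adjusted p = 0.00915), and by 0.86 without replicate 5 (SE 0.12, adjusted p = 5.03e-07). In b6j mice Egf ran from 776 to 1310 CPM at 2 mg/kg, against 1000 to 1580 CPM in b6j controls, and the log2 change was -0.22 ± 0.34 (edgeR adjusted p = 0.699). Of the exonic bases of Egf (chr3:129677565-129755316), 9.82% are shared with other annotated genes, which strand-blind counting cannot separate.

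Casr, the calcium-sensing receptor that restrains salt uptake here, had 9.14, 29.4 and 33.4 CPM (lowest, median, highest) in ob mice at 2 mg/kg, against 36.2, 39.5 and 46 CPM in ob controls. It fell in ob mice with and without replicate 5 (log2 -0.57 ± 0.19 and -0.39 ± 0.14, edgeR adjusted p = 0.0165 and 0.0278). Bsnd encodes barttin, the subunit that the chloride channels of this segment need to reach the cell surface. Bsnd had 9.89, 49.9 and 57.2 CPM at 2 mg/kg against 58.2, 61 and 79 CPM in ob controls. Its change was -0.54 ± 0.20 with all libraries and -0.32 ± 0.10 without replicate 5 (edgeR adjusted p = 0.0295 and 0.00651). For Casr and Bsnd, too, all 6 treated ob libraries lay below all 6 controls. In b6j mice the changes were 0.06 ± 0.19 for Casr and 0.02 ± 0.20 for Bsnd.

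Umod depended on replicate 5. Of its exonic bases 19.5% are shared with an antisense gene, Gm44588. Umod had 981, 1720 and 2050 CPM in ob mice at 2 mg/kg, against 1880, 2380 and 2490 CPM in ob controls, so the groups overlapped. Its fall of 0.46 on the log2 scale (SE 0.16, edgeR adjusted p = 0.0225) became -0.34 ± 0.15 without that library (adjusted p = 0.0669). Kcnj1, the potassium channel ROMK that returns potassium to the urine so that the cotransporter can run, went the other way: -0.58 ± 0.26 with all libraries and -0.34 ± 0.10 without replicate 5 (edgeR adjusted p = 0.073 and 0.00762). Slc12a1 and Ptger3, a prostaglandin E2 receptor that opposes vasopressin, were called in no comparison with or without replicate 5. Slc12a1 had 77.5 CPM in replicate 5 and 842 to 1290 CPM in the other 5 treated ob libraries, against 1090 to 1710 CPM in ob controls. In b6j mice it had 1090 to 1770 CPM at 2 mg/kg against 862 to 1370 CPM in controls, a change of 0.28 ± 0.31. Ptger3 changed by -0.53 ± 0.25 in ob mice and by 0.18 ± 0.25 in b6j mice.

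The promoter of Umod from RefSeq is shown because its transcript is the most abundant of the 33 and because a core of the HNF1 motif (GTTAAT, in capitals), a factor known to drive kidney epithelial genes, lies 202 bases before the start. It is chr7:119479233-119479512 of GRCm38.p6, minus strand, 250 bases before the start and the first 30 after it.
Umod: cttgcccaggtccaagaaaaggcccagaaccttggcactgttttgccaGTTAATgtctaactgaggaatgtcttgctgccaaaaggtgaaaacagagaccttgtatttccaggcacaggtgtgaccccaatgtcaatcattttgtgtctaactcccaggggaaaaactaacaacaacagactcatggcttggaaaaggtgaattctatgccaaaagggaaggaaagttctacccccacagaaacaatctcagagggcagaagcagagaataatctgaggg

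Among 14 further genes of the thick ascending limb, 13 were tested. The counts of this and the later lists stand beside 18% of all genes called lower and 20.4% called higher in ob mice at 2 mg/kg, and 11.4% and 12.3% in b6j mice. Counts without replicate 5 of the ob group stand beside 38% of all genes called in ob mice and 34.8% in b6j mice. Of all genes 18.9% and 17.7% were then called lower. The summed level of the 14 was 9020 to 10200 CPM in ob controls. At 2 mg/kg it was 6470 CPM in ob replicate 5 and 7320 to 8940 CPM without that library. In ob mice at 2 mg/kg 5 fell and 1 rose with all libraries. Atp1b1, the β subunit of the sodium pump, which other tubule segments use as well, was among the falls (log2 -0.35 ± 0.07, edgeR adjusted p = 9.76e-05). The 1 that rose was Ptgs2, the inducible cyclooxygenase of the macula densa, at 2.35 ± 0.56, named after its value was seen. In b6j mice 5 fell and 0 rose, among them Kcnj15, an inward rectifier channel (-0.44 ± 0.09, edgeR adjusted p = 0.000322). Both genes fell in the other genotype as well, at -0.30 ± 0.09 for Kcnj15 in ob mice and -0.19 ± 0.07 for Atp1b1 in b6j mice, while none of the 7 marker genes was called in b6j mice.

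In the distal convoluted tubule 7 of 9 genes fell at 2 mg/kg in ob mice and 3 in b6j mice. Slc12a3, the thiazide-sensitive sodium-chloride cotransporter that defines the segment, had 47.8, 974 and 1030 CPM (lowest, median, highest) in ob mice at 2 mg/kg, against 1510, 1790 and 1830 CPM in ob controls. Without replicate 5 the treated libraries ran from 915 to 1030 CPM, still apart from the controls. Slc12a3 fell by 1.07 on the log2 scale (SE 0.29, edgeR adjusted p = 0.00401) and by 0.81 without replicate 5 (SE 0.07, adjusted p = 3.37e-11). In b6j mice it had 939, 1100 and 1230 CPM at 2 mg/kg, against 1250, 1470 and 1610 CPM in b6j controls. These groups did not overlap either, and the change of -0.43 was called without the ob library (SE 0.07, edgeR adjusted p = 5.02e-06) but not with it (SE 0.29, adjusted p = 0.318).

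Pvalb, a calcium-buffering protein confined to the early part of this tubule, had the largest fall of the 33 genes in both genotypes. Its levels were 0, 8.73 and 12.3 CPM in ob mice at 2 mg/kg, against 16.8, 21.4 and 25.7 CPM in ob controls. The 0 was replicate 5. In b6j mice it had 5.72, 8.01 and 11.5 CPM at 2 mg/kg, against 14.1, 18.5 and 21.3 CPM in b6j controls. The fall was 1.44 on the log2 scale in ob mice (SE 0.37, edgeR adjusted p = 0.00244), or 1.18 without replicate 5 (SE 0.20, adjusted p = 1.13e-05), and 1.12 in b6j mice (SE 0.37, adjusted p = 0.0251). Trpm6, the magnesium channel, was called in b6j mice alone. It had 15.1, 17.7 and 18.3 CPM in b6j mice at 2 mg/kg, against 19, 24 and 24.9 CPM in b6j controls, and fell by 0.43 (SE 0.11, edgeR adjusted p = 0.00488). In ob mice its change was -0.04 ± 0.11, or -0.17 ± 0.10 without replicate 5, and the difference between the genotypes was not called (0.39 ± 0.16, edgeR adjusted p = 0.193).

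**Figure D3:**
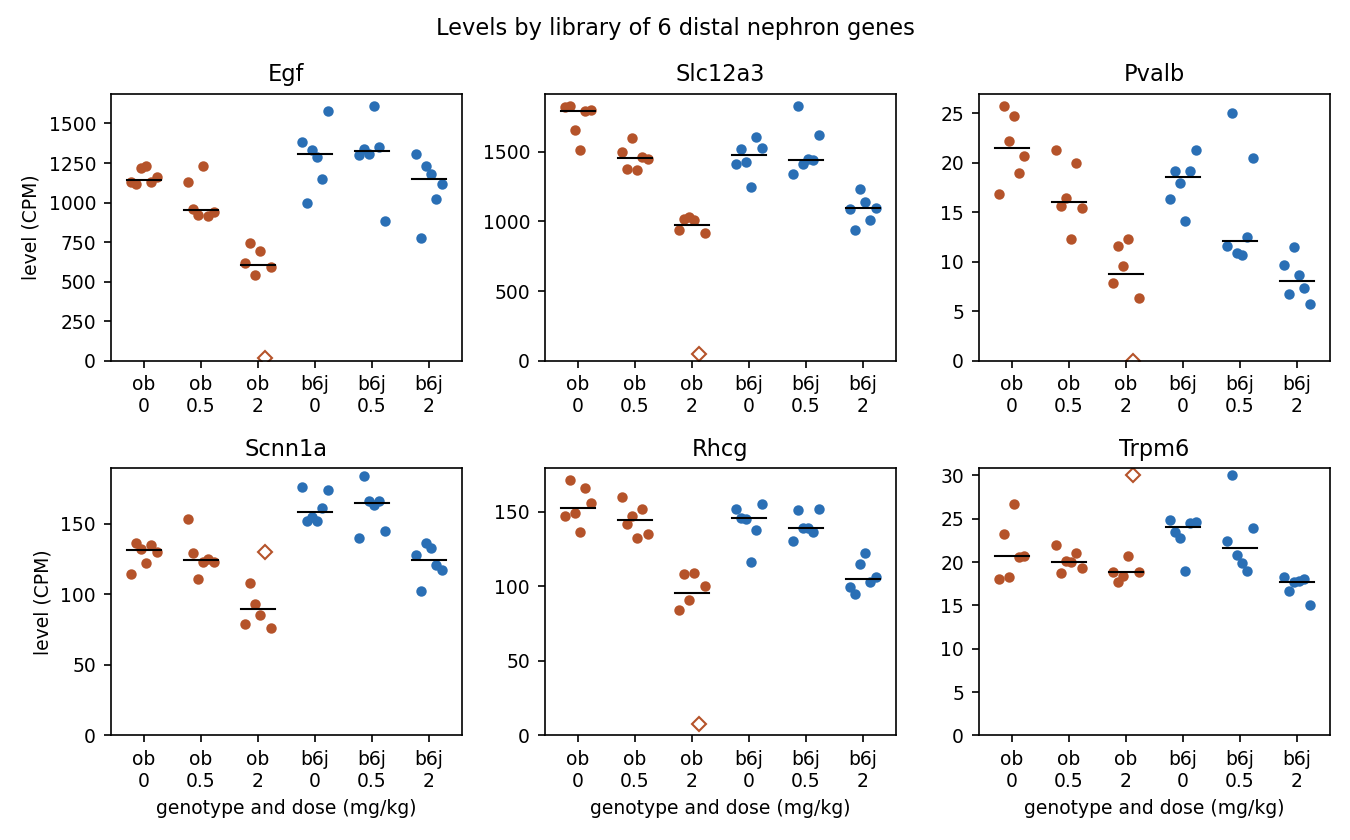
Level in CPM (y axis, starting at 0) of Egf, Slc12a3, Pvalb, Scnn1a, Rhcg and Trpm6 in each of the 36 libraries, by genotype and CdCl2 dose (x axis). Lines are group medians. The open diamond is ob 2 mg/kg replicate 5, which is far below its group for Egf, Slc12a3, Pvalb and Rhcg, and above it for Scnn1a (130 CPM) and Trpm6 (30 CPM).

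Of 4 genes of the kinase pathway that controls the cotransporter, all 4 fell in ob mice, and 1, Wnk4, in b6j mice with all libraries. Klhl3, the adaptor that marks WNK kinases for breakdown, had 14.2, 42.6 and 49.2 CPM in ob mice at 2 mg/kg, against 71.5, 72.5 and 79.3 CPM in ob controls. It fell by 0.94 (SE 0.15, edgeR adjusted p = 9.38e-06), or 0.77 without replicate 5 (SE 0.09, adjusted p = 1.52e-08). Wnk4, a kinase that Klhl3 acts on, had 128, 158 and 180 CPM against 210, 236 and 244 CPM in ob controls. Of its exonic bases 7.38% are shared with an antisense gene. Its fall was 0.57 in ob mice (SE 0.09, edgeR adjusted p = 3.26e-06) and 0.32 in b6j mice (SE 0.09, adjusted p = 0.00695). Wnk1 fell in ob mice by 0.61, or 0.46 without replicate 5. In b6j mice its change of -0.20 was called without the ob library alone. Stk39, the kinase SPAK that the WNK kinases activate, had 20.5, 28.7 and 30.5 CPM at 2 mg/kg against 29.4, 33.1 and 37 CPM in ob controls. It fell by 0.28 in ob mice (SE 0.09, edgeR adjusted p = 0.0123), and changed by -0.01 ± 0.09 in b6j mice.

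Kcnj10 and Kcnj16 encode the subunits of the basolateral potassium channel that sets chloride in these cells. Kcnj10 had 16.2, 45.5 and 55.8 CPM in ob mice at 2 mg/kg, against 65, 71.9 and 78.3 CPM in ob controls, and fell by 0.78 (SE 0.145, edgeR adjusted p = 5.82e-05), or 0.61 without replicate 5. Kcnj16 changed by -0.51 ± 0.21 (edgeR adjusted p = 0.0509) and, without replicate 5, by -0.29 ± 0.07 (adjusted p = 0.000882). In b6j mice the changes were -0.37 ± 0.14 for Kcnj10 and -0.33 ± 0.21 for Kcnj16, neither called with all libraries and both called without the ob library. Klhl3 did the same in b6j mice (-0.33 ± 0.15, edgeR adjusted p = 0.119, and -0.33 ± 0.085 without it, adjusted p = 0.00205). With that library out, 8 of the 9 genes were called lower in each genotype, the exceptions being Trpm6 in ob mice and Stk39 in b6j mice.

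The promoter of Slc12a3 is shown as that of the gene that defines the segment. None of the motifs searched matched within the 300 bases read, which says only that those letters are absent from this window. The run is chr8:94328958-94329237 of GRCm38.p6, plus strand, with the same limits as for Umod.
Slc12a3: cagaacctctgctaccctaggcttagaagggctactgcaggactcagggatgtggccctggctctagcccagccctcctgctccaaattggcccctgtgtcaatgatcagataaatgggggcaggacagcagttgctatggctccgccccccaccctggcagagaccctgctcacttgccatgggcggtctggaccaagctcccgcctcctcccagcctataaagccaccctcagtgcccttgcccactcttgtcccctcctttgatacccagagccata

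Of 16 further genes of the distal convoluted and connecting tubules, 15 were tested. In ob mice 8 fell and 2 rose at 2 mg/kg, and without replicate 5 these counts were 9 and 1. Klk1, tissue kallikrein of the connecting tubule, fell by 1.03 in ob mice (SE 0.14, edgeR adjusted p = 3.69e-07) and by 0.46 in b6j mice (SE 0.14, adjusted p = 0.0117). Cab39l, a cofactor of the kinase SPAK (-0.56 ± 0.11), and the transcription factor Sall3 (-0.83 ± 0.20) fell in ob mice. Calb1, the calcium-binding protein calbindin, was the other of the 2 calls in b6j mice, where it fell by 0.84 (SE 0.23, edgeR adjusted p = 0.00759). Without the ob library 4 fell in b6j mice. In ob mice it fell by 0.80 (SE 0.23, edgeR adjusted p = 0.0068).

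In principal cells of ob mice at 2 mg/kg all 3 subunits of the sodium channel fell and the water channels spread widely. Scnn1a, Scnn1b and Scnn1g encode the α, β and γ subunits of the epithelial sodium channel. Scnn1a had 75.8, 89.3 and 130 CPM (lowest, median, highest) in ob mice at 2 mg/kg, against 114, 131 and 136 CPM in ob controls. Here replicate 5 was the highest treated library, and without it the groups did not overlap. Scnn1a fell by 0.43 (SE 0.10, edgeR adjusted p = 0.000681), and by 0.53 without replicate 5 (SE 0.08, adjusted p = 3.48e-06). It also fell in b6j mice, to 102, 124 and 136 CPM at 2 mg/kg, against 152, 158 and 176 CPM in b6j controls (log2 -0.40 ± 0.10, edgeR adjusted p = 0.00256). Scnn1b had 40.4 to 53.6 CPM against 64.6 to 73.8 CPM in ob controls, with no overlap, and fell by 0.51 (SE 0.08, edgeR adjusted p = 9.8e-06). Scnn1g fell by 0.57 (SE 0.13, edgeR adjusted p = 0.000861), or 0.42 without replicate 5. In b6j mice Scnn1b changed by -0.18 ± 0.08 and was called in neither fit, and Scnn1g by -0.26 ± 0.13, called without the ob library alone.

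Aqp3, the basolateral water and glycerol channel, had 48.2, 69.8 and 88.7 CPM in ob mice at 2 mg/kg, against 87.2, 126 and 131 CPM in ob controls. In b6j mice it had 60.9, 76 and 102 CPM at 2 mg/kg, against 96, 110 and 122 CPM in b6j controls. It fell in both, by 0.78 in ob mice (SE 0.13, edgeR adjusted p = 9.06e-06; 0.69 without replicate 5) and by 0.48 in b6j mice (SE 0.13, adjusted p = 0.00483), although 1 library in each genotype reached into the range of its controls. Its promoter is shown because it holds a core of the metal response element (TGCACNC or TGCGCNC, in capitals), the site of the metal-sensing factor MTF1, 13 bases before the start. A further match begins at base 31 after the start, outside the printed run, which is chr4:41098154-41098433 of GRCm38.p6, minus strand.
Aqp3: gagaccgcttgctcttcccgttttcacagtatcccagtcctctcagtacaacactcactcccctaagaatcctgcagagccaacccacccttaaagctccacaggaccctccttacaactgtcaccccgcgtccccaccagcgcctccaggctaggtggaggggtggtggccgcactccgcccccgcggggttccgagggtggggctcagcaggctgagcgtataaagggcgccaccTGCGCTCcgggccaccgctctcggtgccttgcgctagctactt

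The ob 2 mg/kg libraries fell into separate levels for the other water channels, and Aqp4 also spread widely at 0.5 mg/kg in both genotypes. Aqp4, a basolateral water channel of the same cells, had 9.54, 65.1, 7.68, 73.2, 7.34 and 73.2 CPM in replicates 1 to 6 of ob mice at 2 mg/kg, against 49.7 to 99.8 CPM in ob controls. Replicates 1, 3 and 5 lay below every control and the other 3 lay within the range of the controls. Aqp2, the vasopressin-regulated channel of the apical side, had 77.5, 234, 95.2, 194, 35.9 and 190 CPM in the same libraries, against 133 to 309 CPM in ob controls. The same 3 replicates were again below every control. Fxyd4, a regulator of the sodium pump, had 23.1, 36, 14.9, 35.2, 17.9 and 41.1 CPM, against 29.6 to 51.2 CPM in ob controls, with replicates 1, 3 and 5 lowest. Slc14a2, the urea transporter of the inner medulla, was at 25.8, 27.1 and 43.1 CPM in replicates 1, 3 and 5 and at 45.8 to 75.1 CPM in the other 3, against 43.9 to 90.7 CPM in ob controls. The summed level of 7 genes of the thin limb and inner medulla was 792, 710 and 573 CPM in replicates 1, 3 and 5 and 865 to 1090 CPM in the other 3, against 1270 to 1510 CPM in ob controls. For this sum all 6 treated libraries thus lay below every control. Of its 7 genes, however, 3 were called higher and 1 lower in ob mice at 2 mg/kg. The lower 1 was Aqp1, a water channel that proximal tubule cells also make, named after its value was seen. The part of this sum in the spread of the water channels was not tested.

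With this spread, Aqp2 was called with all libraries (-0.77 ± 0.31, edgeR adjusted p = 0.0484) and not without replicate 5 (-0.56 ± 0.27, adjusted p = 0.103). Aqp4 and Fxyd4 were called in no comparison. Their log2 changes in ob mice were -0.93 ± 0.43 and -0.52 ± 0.23, and in b6j mice -0.26 ± 0.42 and -0.23 ± 0.23. In b6j mice at 2 mg/kg Aqp4 ran from 39.3 to 80.1 CPM against 50.1 to 105 CPM in b6j controls, and Aqp2 from 150 to 243 CPM against 117 to 417 CPM. At 0.5 mg/kg Aqp4 ran from 42.5 to 93.2 CPM in ob mice, with replicates 1 and 3 below every ob control. In b6j mice it ran from 25.3 to 108 CPM at that dose, with replicates 2 and 6 below every b6j control. Aqp2 ran from 127 to 303 CPM in ob mice and from 128 to 234 CPM in b6j mice at 0.5 mg/kg. Slc14a2 ran from 29.2 to 73.2 CPM and from 26.3 to 91.1 CPM.

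**Figure D4:**
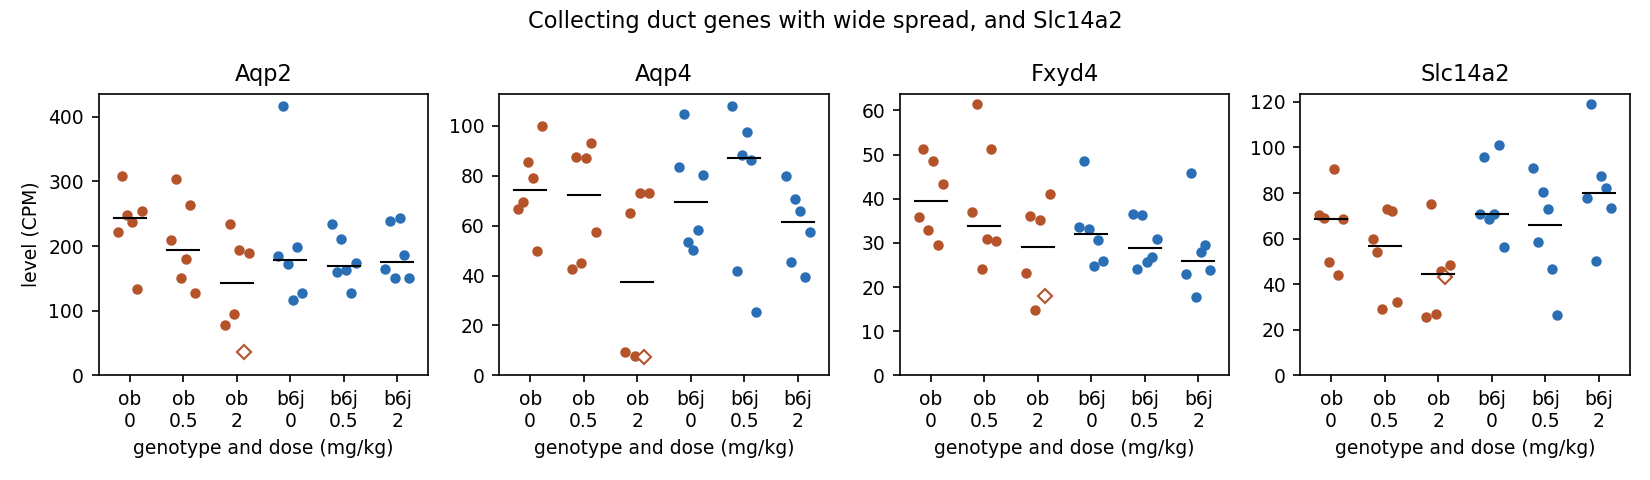
Level in CPM (y axis, starting at 0) of Aqp2, Aqp4, Fxyd4 and the inner medullary Slc14a2 in each library, by genotype and CdCl2 dose (x axis), with group medians as lines and ob 2 mg/kg replicate 5 as an open diamond. For Aqp4 the 6 ob 2 mg/kg libraries form 3 points between 7.34 and 9.54 CPM and 3 between 65.1 and 73.2 CPM.

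Genes of aldosterone action and sodium channel control, 11 in all, gave 4 falls and 1 rise in ob mice at 2 mg/kg and 3 falls and 0 rises in b6j mice. Usp2, a deubiquitinase that acts on the sodium channel, fell in both, by 0.92 (SE 0.13, edgeR adjusted p = 1.16e-06) in ob mice and 0.95 (SE 0.13, adjusted p = 1.2e-06) in b6j mice. Hsd11b2, the enzyme that keeps glucocorticoids off the mineralocorticoid receptor, fell by 0.72 in ob mice and 0.46 in b6j mice. The receptor itself, Nr3c2, fell in ob mice (-0.43 ± 0.09). Tsc22d3, a steroid-induced leucine zipper protein, fell in ob mice (-0.65 ± 0.19) and b6j mice (-0.93 ± 0.19). Without replicate 5 the falls were 6 in ob mice and 4 in b6j mice, and Per1, a clock gene induced by aldosterone and named after its value was seen, was then called in both (-1.40 ± 0.18 and -0.79 ± 0.17). Of 14 further genes of vasopressin response and principal cells, 5 fell and 3 rose in ob mice, and 1 fell and 3 rose in b6j mice, or 5 rose without the ob library. The 3 rises in ob mice are a share near the 20.4% of all genes called higher, and the 1 fall in b6j mice a share below the 11.4% called lower. Akap7, an anchor of protein kinase A (-0.68 ± 0.13), and Adcy6, an adenylyl cyclase (-0.25 ± 0.06), fell in ob mice. Edn1, the precursor of endothelin-1, rose in ob mice (0.67 ± 0.19) and in b6j mice (0.76 ± 0.19). Ptger4, a prostaglandin E2 receptor, rose in both as well (0.41 ± 0.13 and 0.50 ± 0.13), and the transcription factor Tfcp2l1 fell in both (-0.24 ± 0.08 and -0.28 ± 0.08).

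Kcnma1, the large-conductance potassium channel of the distal nephron, moved in opposite directions. It fell by 1.05 in ob mice (SE 0.19, edgeR adjusted p = 3.07e-05) and rose by 0.62 in b6j mice (SE 0.18, adjusted p = 0.0107). The difference between the responses was -1.67 ± 0.26 (edgeR adjusted p = 0.000359), and -1.52 ± 0.23 without replicate 5 (adjusted p = 0.000106). Of 8 genes of the response to hypertonicity, 1 rose and 1 fell in ob mice, the chaperone Hspa4l (0.49 ± 0.11) and the taurine transporter Slc6a6 (-0.50 ± 0.10). Each is a smaller share of the list than the 20.4% called higher and 18% called lower among all genes. In b6j mice 2 rose, Hspa4l (0.31 ± 0.11) and the betaine transporter Slc6a12 (1.19 ± 0.40).

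Intercalated cells showed falls in transporters in ob mice while their defining transcription factor was not called. Slc4a1, the chloride-bicarbonate exchanger of the acid-secreting cells and also the band 3 protein of red cells, had 0.622, 23.8 and 32.6 CPM in ob mice at 2 mg/kg, against 37.2, 43.8 and 54.1 CPM in ob controls. It fell by 1.09 (SE 0.33, edgeR adjusted p = 0.00857), or 0.83 without replicate 5 (SE 0.17, adjusted p = 0.000117), with no overlap between the groups. The summed level of 7 genes of red cells was 11.8 CPM in replicate 5 and 124 to 335 CPM in the other 5 treated ob libraries, against 163 to 526 CPM in ob controls, and the part of red cells in the fall of Slc4a1 was not tested. In b6j mice Slc4a1 changed by -0.10 ± 0.32.

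Rhcg, an ammonia transporter, had 7.31, 95.6 and 109 CPM in ob mice at 2 mg/kg, against 136, 152 and 171 CPM in ob controls. It fell by 0.89 (SE 0.26, edgeR adjusted p = 0.00664), or 0.64 without replicate 5 (SE 0.08, adjusted p = 1.38e-08). Slc4a9, an anion exchanger of the base-secreting cells, had 25.4, 76.5 and 92.5 CPM against 113, 128 and 138 CPM in ob controls, and 62.1, 75.5 and 95.8 CPM in b6j mice at 2 mg/kg against 95.2, 113 and 117 CPM in b6j controls. It fell by 0.84 in ob mice (SE 0.16, edgeR adjusted p = 7.15e-05) and by 0.50 in b6j mice (SE 0.16, adjusted p = 0.0175). Slc26a4, pendrin, the chloride-bicarbonate exchanger of the same cells, had 26.5 to 75.1 CPM in treated ob mice against 81.8 to 103 CPM in ob controls, and fell by 0.66 (SE 0.14, edgeR adjusted p = 0.000285). In b6j mice Slc26a4 changed by -0.13 ± 0.14, while Rhcg changed by -0.41 and was called without the ob library alone (SE 0.07, edgeR adjusted p = 1.61e-05).

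Of the subunits of the proton pump, Atp6v1b1 had 28.7, 106 and 111 CPM in ob mice at 2 mg/kg against 136, 146 and 160 CPM in ob controls, and fell by 0.65 (SE 0.16, edgeR adjusted p = 0.00136), or 0.46 without replicate 5. Atp6v1g3 fell in both genotypes, by 0.43 in ob mice (SE 0.09, edgeR adjusted p = 0.000182) and 0.30 in b6j mice (SE 0.09, adjusted p = 0.0104). Atp6v0d2 fell by 0.25 in ob mice (SE 0.09, edgeR adjusted p = 0.0238), or 0.35 without replicate 5. Foxi1, the transcription factor that intercalated cells need, had 14.2, 17.7 and 25.9 CPM at 2 mg/kg against 16.5, 20.8 and 24.4 CPM in ob controls. Its log2 change was -0.13 ± 0.15 in ob mice and -0.12 ± 0.15 in b6j mice, and it was called in no comparison. Car2, a carbonic anhydrase that proximal cells also make, changed by -0.01 ± 0.08 in ob mice and 0.09 ± 0.06 without replicate 5. In b6j mice its change of -0.16 was called without the ob library (SE 0.06, edgeR adjusted p = 0.0357) but not with it (SE 0.08, adjusted p = 0.183).

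The promoter of Atp6v1b1 is shown for a forkhead core (TGTTTAC, in capitals), the kind of site that Foxi1 is known to bind, 98 bases before the start. The run is chr6:83742767-83743046 of GRCm38.p6, plus strand.
Atp6v1b1: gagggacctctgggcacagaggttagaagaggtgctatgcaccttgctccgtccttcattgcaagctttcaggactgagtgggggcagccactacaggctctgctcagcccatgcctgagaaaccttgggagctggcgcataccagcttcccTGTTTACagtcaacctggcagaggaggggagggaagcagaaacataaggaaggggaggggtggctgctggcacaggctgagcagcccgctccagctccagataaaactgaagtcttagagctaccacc

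Of the 33 genes, 26 had a RefSeq promoter of 300 bases. The forkhead core (TGTTTAC or TGTTTGC, either strand) was in 4 of the 26, or 15.4%, and in 8.34% of 27025 promoters of all genes. The HNF1 core was in 3, or 11.5%, and in 7.2% of all. The metal response core was in 3, or 11.5%, and in 25.6% of all, and the core of the steroid receptor site (AGAACA) in 7, or 26.9%, and in 19% of all. No test was made of these shares, and a match of letters is not a bound site.

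Of 16 further genes of intercalated cells, 7 fell and 0 rose in ob mice at 2 mg/kg. Slc26a7, an anion exchanger (-1.08 ± 0.22), Atp6v1c2, a further subunit of the proton pump (-0.74 ± 0.15), and the adhesion protein Hepacam2 (-0.54 ± 0.12) had the smallest p-values. In b6j mice 0 of the 16 were called with all libraries, and 4 fell and 1 rose without the ob library.

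At 0.5 mg/kg little passed the test. In ob mice 1 of 32 genes fell against ob controls, where 0.737% of all genes were called lower. It was Atp6v0d2, with 19.8, 21.9 and 23.6 CPM at 0.5 mg/kg against 25, 26.7 and 30.5 CPM in ob controls (log2 -0.30 ± 0.09, edgeR adjusted p = 0.0444). These groups did not overlap. Without replicate 5 of the 2 mg/kg group Slc12a3 was called too, with 1370 to 1600 CPM against 1510 to 1830 CPM in ob controls (-0.26 ± 0.07, edgeR adjusted p = 0.0106), so 2 of 32 were called lower where 3.04% of all genes were. The fitted changes were below 0 for 30 of the 32 genes, with a median of -0.17 against -0.01 for all genes tested. In edgeR 2 genes had an unadjusted p below 0.05 with all libraries and 14 without replicate 5, all of them lower. In b6j mice 0 of 32 were called by edgeR or DESeq2, where 0.325% of all genes were called, and 0 had an unadjusted p below 0.05 in edgeR. Without the ob library 0 were again called, where 0.854% of all genes were. There 15 of the changes were below 0 and 17 above, with a median of 0.01.

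Between the doses, 17 of 32 genes were lower in ob mice at 2 mg/kg than at 0.5 mg/kg, and 18 without replicate 5, where 14.5% and 14.3% of all genes were called lower. Only 1 of those 17 belongs to the thick ascending limb, Egf (-0.92 ± 0.34), whereas 7 of 9 genes of the distal convoluted tubule were among them. In b6j mice 7 of 32 were lower at 2 than at 0.5 mg/kg, and 17 without the ob library, where 8.51% and 15.1% of all genes were called lower. The medians of the segment means of Umod and the other 6 genes of the thick ascending limb were 0.01, -0.34 and -0.38 at 0, 0.5 and 2 mg/kg in ob mice, and those of the distal convoluted tubule -0.01, -0.19 and -0.65, on the log2 scale. In b6j mice the same medians were 0.05, 0.07 and 0.10 for the thick ascending limb and 0.003, -0.11 and -0.37 for the distal convoluted tubule. The segment means use the same controls within a genotype, and the comparisons between doses share their treated libraries with those against controls.

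Before any cadmium the genotypes differed in few of these genes. In ob controls against b6j controls 2 genes were higher and 1 lower of 32, while 15.5% of all genes were called, 6.6% higher and 8.93% lower. Car2 had 433, 470 and 524 CPM in ob controls, against 278, 351 and 376 CPM in b6j controls, with no overlap (log2 0.46 ± 0.08, edgeR adjusted p = 0.000134). Atp6v0d2 had 25 to 30.5 CPM against 20.3 to 24.5 CPM (0.27 ± 0.09, edgeR adjusted p = 0.0314), and Scnn1a had 114 to 136 CPM in ob controls against 152 to 176 CPM in b6j controls (-0.33 ± 0.10, adjusted p = 0.0158). Without the ob 2 mg/kg library, 6 genes were higher and 1 lower where 26% of all genes were called (11.8% higher and 14.2% lower), the further ones being Slc12a3, Klhl3, Atp6v1g3 and Atp6v1b1, by 0.23 to 0.25. All 9 genes of intercalated cells had a fitted change above 0, the lowest 0.04. Scaling by library totals alone put the median of all genes at 0.16 in this comparison, against 0.03 as reported here, and Scnn1a was then not called (-0.20, edgeR adjusted p = 0.131).

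Whether ob and b6j mice responded differently was tested directly. At 2 mg/kg 0 of 32 genes were called for a difference between the responses by edgeR or DESeq2, where edgeR called 2.07% of all genes, and 11 had an unadjusted p below 0.05. Without replicate 5 there were 3, or 9.38%, where 4.12% of all genes were called. Egf differed by -0.63 ± 0.17 (edgeR adjusted p = 0.021), Slc12a3 by -0.38 ± 0.10 (adjusted p = 0.0205) and Klhl3 by -0.43 ± 0.12 (adjusted p = 0.0374), each further down in ob mice. Slc12a3 and Klhl3 were also called higher in ob than in b6j controls in this fit. Their means at 2 mg/kg were 982 and 43.6 CPM in ob mice without replicate 5, against 1080 and 50.1 CPM in b6j mice. Those of Egf were 640 and 1100 CPM. Between controls the fitted change of ob against b6j mice was above 0 for 26 of 32 genes. The fitted difference between the responses was below 0 for 30 of 32 genes with all libraries and for 29 without replicate 5, with medians of -0.41 and -0.26, against 0.003 and -0.003 for all genes. Of the 7 genes of the thick ascending limb all 7 were below 0, between -0.63 and -0.29 without replicate 5. Pvalb, which fell in both genotypes, differed by -0.05 ± 0.27 without replicate 5. At 0.5 mg/kg 0 genes were called with all libraries (1 at an unadjusted p below 0.05, 0 by DESeq2), where 0.385% of all genes were, and 1 without replicate 5, Atp6v0d2 (-0.38 ± 0.10, edgeR adjusted p = 0.0378), where 1.38% were.

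Replicate 5 of the ob 2 mg/kg group was not lower in every gene. It lay below the other 5 libraries in 24 of the 33 genes, above them in 5 and among them in 4. As a share of the mean of ob controls, Slc4a1 was at 1.4%, Egf at 1.51%, Slc12a3 at 2.75%, Rhcg at 4.74%, Slc12a1 at 6.01% and Kcnj1 at 6.94%. In the other 5 libraries the same genes averaged 56.1%, 55%, 56.6%, 63.8%, 86.5% and 79%. Umod was at 43% in replicate 5 and 78.5% in the others. The 5 genes above the other libraries were Trpm6 at 141%, Foxi1 at 127%, Atp6v0d2 at 114%, Scnn1a at 101% and Atp6v1g3 at 82%, against 88.8%, 84.5%, 78.3%, 68.8% and 72.3% in the others. Within the proton pump, Atp6v1b1 was at 19.5% while Atp6v0d2 was above its controls, and within the sodium channel Scnn1g was at 30.1%, Scnn1b at 58.8% and Scnn1a at 101%.

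**Figure D5:**
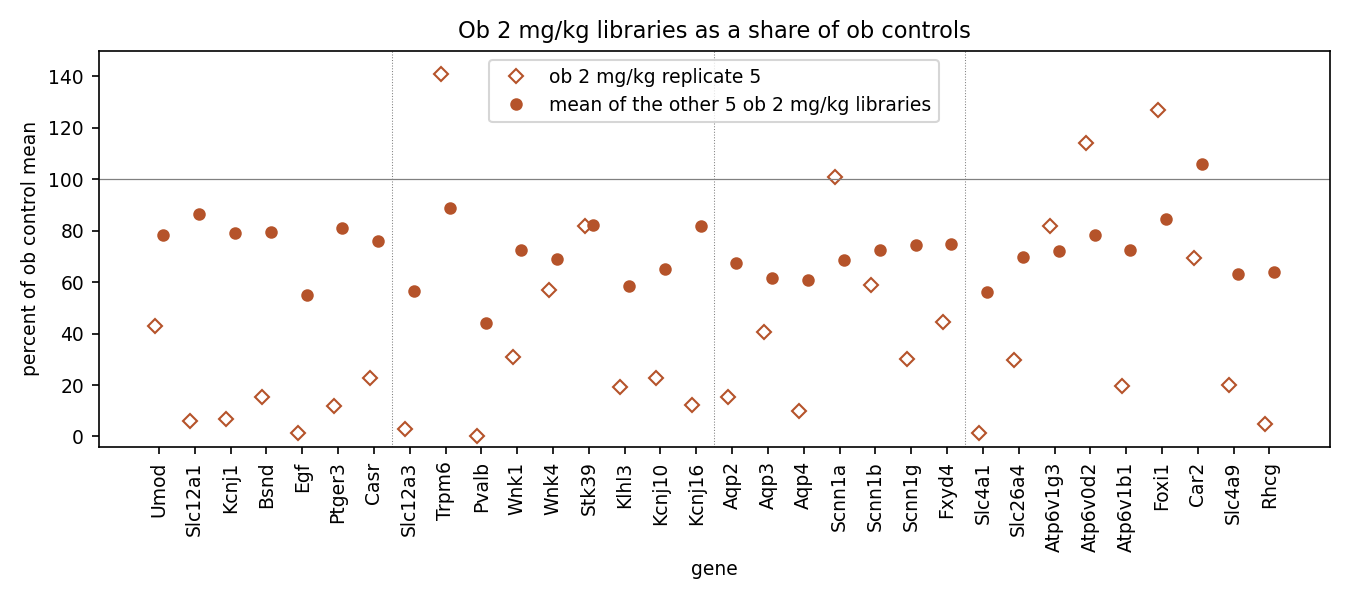
Level as a percent of the ob control mean (y axis) for each of 32 genes (x axis, by segment, dotted lines between segments), with ob 2 mg/kg replicate 5 as open diamonds and the mean of the other 5 ob 2 mg/kg libraries as filled circles. The diamonds run from 0% for Pvalb to 141% for Trpm6, and the circles from 44.2% for Pvalb to 106% for Car2.

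Markers of other kidney cells moved with dose as well, and their counts stand beside the 18% of all genes called lower and 20.4% called higher in ob mice and the 11.4% and 12.3% in b6j mice. Without replicate 5, 38% of all genes were called in ob mice and 34.8% in b6j mice. Of all genes 18.9% and 17.7% were then called lower. Of 10 genes of injured tubule, 10 rose in ob mice at 2 mg/kg and 6 in b6j mice, and their summed level was 2390 to 16900 CPM against 1210 to 1580 CPM in ob controls, and 1840 to 2240 CPM against 808 to 1120 CPM in b6j controls. Of 8 genes of the last part of the proximal tubule, 6 fell in ob mice and 4 in b6j mice, with sums of 1360 to 3020 CPM against 4690 to 5660 CPM and of 3300 to 5090 CPM against 6340 to 8440 CPM. Of 10 genes of its earlier parts, 3 fell in ob mice and 2 in b6j mice, or 7 in b6j mice without the ob library. All 7 genes of endothelium and 4 of 7 of podocytes fell in ob mice, and 0 of either in b6j mice. Without replicate 5 these 2 counts in ob mice were 5 and 6, and 2 genes of endothelium fell in b6j mice. The endothelial sums were 266 to 456 CPM against 536 to 612 CPM in ob controls and 347 to 420 CPM against 345 to 465 CPM in b6j controls. Of 10 genes of macrophages and leukocytes, 5 rose and 2 fell in ob mice and 5 rose in b6j mice, the 2 falls being a share near that of all genes. Their summed level was 136 to 158 CPM in ob controls. At 2 mg/kg it was 102 CPM in replicate 5 and 225 to 410 CPM in the other 5 ob libraries. In b6j mice the sum was 176 to 255 CPM at 2 mg/kg against 145 to 178 CPM in controls. Of 7 genes of the thin limb and inner medulla 3 rose and 1 fell in ob mice, or 2 and 1 without replicate 5. The fall was Aqp1, a water channel that proximal tubule cells also make (-0.93 ± 0.22, edgeR adjusted p = 0.00081), named after its value was seen. The summed level of the 7 lay below every control in ob mice, at 573 to 1090 CPM against 1270 to 1510 CPM, and at 710 to 1090 CPM without replicate 5. In b6j mice 0 of the 7 were called with all libraries, and 1 rose and 1 fell without the ob library, with sums of 1120 to 1390 CPM against 1390 to 1620 CPM. Of 7 genes of red cells 1 rose and 3 fell in ob mice, and 1 rose in b6j mice, where 2 also fell without the ob library. Of 8 genes of fibroblasts and pericytes 2 rose and 1 fell in ob mice, and 5 rose in b6j mice. Their summed level was 237 to 287 CPM in ob controls. At 2 mg/kg it was 101 CPM in replicate 5 and 306 to 414 CPM in the other 5 ob libraries. In b6j mice the sum was 264 to 341 CPM at 2 mg/kg against 144 to 228 CPM in controls. Of 7 genes of fat 0 were called in ob mice and 3 rose in b6j mice, and of 6 tested genes of urothelium 0 were called in ob mice and 1 rose in b6j mice. No defining marker was at or under 3 counts in every library of a group, apart from 1 gene of urothelium, Krt13, in 5 of the 6 groups. Among the further distal genes this also held for Kcna1, a potassium channel of the distal convoluted tubule, in ob mice at 0.5 and 2 mg/kg. The part of these shifts in the falls of distal genes was not tested.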

How the data were processed

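RNA of 36 kidney libraries was analysed. Integer counts of reads per gene were deposited for each library; per the file headers they were made by the authors with featureCounts 1.4.6-p2 and Ensembl 96 annotation, with strand ignored. Per the submitters' processing notes bcl2fastq, Trimmomatic, FastQC and STAR were used with build GRCm38. A joined table with 36 value columns was not used: 24 of them hold the same counts as a per-library file, and 12 match none and have totals below the lowest per-library total. From the counts, edgeR 4.0.16 (R 4.3.3, limma 3.58.1) filtered low genes (filterByExpr), scaled totals (TMM) and fitted 1 mean per group over all 36 libraries, with quasi-likelihood tests of 9 comparisons, adjusted by Benjamini-Hochberg over 18180 genes. Library totals were 26783936 to 37244058 counts. Segment means used log2 of CPM plus 0.5. The steps were tested on simulated data. Alternatives included DESeq2 1.42.0 and limma-voom. All 33 genes are described by segment. Up to 6 called genes per segment carry full statistics, and up to 3 called genes per further list and comparison are named. Some items are not reported here. The genes, the lists and the library left out were chosen with earlier results of these data known. Promoters came from RefSeq (GRCm38.p6) and were searched on both strands, with matches allowed to overlap.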

Additional observations from a re-analysis of the deposited data

Results flagged for a closer look

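Among 198 pairs of a gene and a group of 6 libraries, 27 held a library far from the other 5 by Dixon's gap test, which chance alone does in about 1 in 20 groups. Replicate 5 of the ob 2 mg/kg group accounted for 16 of the 27. It was low for 15 genes: Slc12a1 at 77.5 CPM (nearest library 842), Kcnj1 at 12.8, Bsnd at 9.89, Egf at 17.6, Ptger3 at 5.6, Casr at 9.14, Slc12a3 at 47.8, Wnk1 at 155, Klhl3 at 14.2, Kcnj10 at 16.2, Kcnj16 at 75, Scnn1g at 14.1, Atp6v1b1 at 28.7, Slc4a9 at 25.4 and Rhcg at 7.31 CPM. It was high for Trpm6, at 30 CPM against 20.7 in the nearest library.

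The other 11 lay in 9 libraries. In b6j controls, replicate 2 was high for Aqp2 (417 CPM) and Fxyd4 (48.5 CPM), replicate 4 was low for Trpm6 (19 CPM) and Slc4a9 (95.2 CPM), replicate 1 was low for Car2 (278 CPM) and replicate 5 was high for Avpr2 (0.511 CPM). At 0.5 mg/kg, b6j replicate 6 was low for Slc12a1 (572 CPM), b6j replicate 2 was high for Wnk1 (599 CPM) and ob replicate 1 was high for Kcnj10 (74.2 CPM). At 2 mg/kg b6j replicate 2 was low for Kcnj16 (350 CPM), and ob control replicate 1 was low for Atp6v1g3 (42.5 CPM).

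The response of ob mice differed from that of b6j mice in a direct test for 4 genes, in each case without ob 2 mg/kg replicate 5. The differences in log2 change were -0.63 for Egf, -0.38 for Slc12a3 and -0.43 for Klhl3 at 2 mg/kg, and -0.38 for Atp6v0d2 at 0.5 mg/kg. With all libraries none of the 4 was called by edgeR.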

How the results depend on the processing

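No called change reversed under any of the 11 alternatives. The shares of all genes called that follow are for calls in either direction. The count of falls at 2 mg/kg in ob mice was 23 and stayed between 21 and 25, except for 11 with the compared groups alone. There 23.2% of all genes were called, against 38.4% in the fit reported above. Against 0.5 mg/kg the count was 17, and 5 with the compared groups alone, where the shares were 29.7% and 11.4%. For b6j mice at 2 mg/kg the count of 7 became 4 with library totals alone as the scale and 16 with limma-voom sample weights. It became 15 with the compared groups alone, 16 without ob 2 mg/kg replicate 5 and 9 without b6j control replicate 4. The share of all genes called, 23.7%, became 26%, 38.2%, 36.7%, and 34.8% or 23.3% in the same order. Against 0.5 mg/kg the 7 became 4, 15, 13, and 17 or 7, and the share of all genes, 17.3%, became 19.3%, 28.5%, 26.5%, and 28.7% or 17.2%. Between controls the 3 became 5, 9, 10, and 7 or 3, and the share of all genes, 15.5%, became 21.3%, 31%, 30.6%, and 26% or 14.7%. For ob mice at 0.5 mg/kg the 1 call became 0 with RLE scaling, 2 with library totals, 2 with limma-voom and 0 without a filter. It became 7 with the compared groups alone, 0 with a replicate block, and 2 or 1 with those libraries left out. In the same order the share of all genes, 4.28%, became 4.21%, 5.95%, 12.9%, 1.58%, 11.8%, 4.1%, and 9.68% or 4.04%. The difference between responses at 2 mg/kg, 0 calls, gave 1 with library totals, 4 with limma-voom and 3 or 0 with a library left out. It gave 4 with the compared groups alone and replicate 5 out, chosen after seeing the data. The share of all genes, 2.07%, became 3.25%, 5.91%, 4.12% or 2.11%, and 4.15%. At 0.5 mg/kg the difference gave 1 with limma-voom, 1 with the compared groups alone, and 1 or 0 with a library left out. The share of all genes, 0.385%, became 4.43%, 1.86%, and 1.38% or 0.303%. The cause of these shifts was not tested. Library totals alone moved the share of higher calls among all genes called in b6j mice at 2 mg/kg to 73.3%, against 51.8%, and the median of all genes to 0.12, against 0.02. Of all genes, 3880 were called in ob mice and 6061 in b6j mice at 2 mg/kg with the compared groups alone, against 6976 and 4305. Same-numbered libraries correlated between -0.184 and 0.242 and 6 of 36 matched best with their own number, so the numbers do not pair the libraries; the replicate block gave 25 calls in ob mice at 2 mg/kg and 7 in b6j mice. Avpr2, near what 3 counts are worth, was not tested.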
